A study of Mus musculus with 2 samples.

Results

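Among single mouse regulatory T (Treg) cells, a group was picked out by transcripts of Ryr2, C2cd4b, Hdac9 and Plagl1, and its cells are called Ryr2 Hdac9 C2cd4b cells, or members, here. A cell was a member when at least 2 of these 4 rule genes had at least 1 unique molecular identifier (UMI, a tag that counts 1 captured transcript), at most 1 of Ccl5, Il10 and Klrg1 was detected and no UMI of Igfbp4 was present. The rule took 961 of 12217 kept cells of the Mito-high library and 1022 of 11679 kept cells of the Mito-low library, or 1983 of 23896 cells in all. Mito-high and Mito-low are the 2 fractions into which Treg cells stained with MitoTracker, a dye that collects in mitochondria, had been sorted by flow cytometry, and each fraction gave 1 library from 12000 loaded cells. The series title places the study in copper biology and suppression by Treg cells. The sources used here give no strain, tissue, age, number of mice or treatment, nor the gate by which Treg cells were told apart, and both groups carry the same label, regulatory T cells. With 1 library for each fraction there is no replicate, so no difference below has a test or a p-value. All intervals are exact 95% intervals that cover counting error only.

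Treg cells are CD4 T cells that depend on the transcription factor Foxp3 and restrain other immune cells. They range from resting cells that circulate through lymph nodes to effector cells that home to tissues and express secreted or surface suppressive molecules, and Ikzf2 and Ctla4 are among the genes that they use. Of the rule genes, Ryr2 encodes a calcium release channel of the endoplasmic reticulum best known from heart muscle, Hdac9 a class IIa histone deacetylase, Plagl1 an imprinted zinc finger transcription factor and C2cd4b a small protein of the C2CD4 family. Tbc1d4, the marker that the rule did not use, encodes a GTPase-activating protein downstream of AKT that controls movement of glucose transporters to the cell surface.

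The median depth of kept cells was 6132 UMIs for Mito-high and 4668 UMIs for Mito-low, and the libraries hold 12352 and 11901 barcodes, of which the first is above the 12000 cells loaded. Members held 9312933 and 6486054 UMIs in sum, and the other kept cells 80583345 and 54040156. Levels are given as counts per 1000000 UMIs (CPM) of such sums, and ratios as log2 of the CPM after 1 UMI was added to each sum. A gene counts as measured when its mean CPM over the 4 sums (members and others of both libraries) was at least 10, which 7378 genes outside the rule reached. The mark of 1.5-fold, used for both directions, describes size alone. Between the libraries 35 kept barcodes were shared, 4 of them in members of each library, and leaving them out moved the number of genes higher in members from 102 to 103 and of genes lower from 52 to 51.

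Levels of the rule genes are set by the choice of cells and describe it. Ryr2 (chromosome 13, 11553102 to 12106945, minus strand, mm10) was at 127 CPM in Mito-high members against 9.93 in the other Mito-high cells, and at 211 CPM in Mito-low members against 12.1 in the others. C2cd4b (chromosome 9, 67759437 to 67760930, plus strand) was at 79.8 against 5.84 CPM in Mito-high and at 116 against 12.1 CPM in Mito-low. Hdac9 (chromosome 12, 34047580 to 34917095, minus strand) was at 255 against 28.7 CPM and at 364 against 43.3 CPM. All 3 were higher in Mito-low than in Mito-high members. Plagl1 (chromosome 10, 13060504 to 13131694, plus strand) was at 235 against 54.9 CPM in Mito-high and at 261 against 57.2 CPM in Mito-low. Plagl1 was the rule gene found in most members, detected in 83.9% of the Mito-high members and 75.0% of the Mito-low ones. The pair Hdac9 and Plagl1 alone made up 34.8% of Mito-high and 30.9% of Mito-low members, the most common of the combinations, whereas all 4 genes were present in 16 and 21 cells. In each library most members had no C2cd4b UMI and most had no Ryr2 UMI. The name of the group therefore does not mean that a typical member carried each gene in it. Just inside the threshold, with exactly 2 rule genes, lay 753 Mito-high and 821 Mito-low members. Just outside it, with 1 rule gene and the exclusions passed, lay 2553 and 2673 cells. The exclusions removed 141 and 107 cells that carried at least 2 rule genes. They also fix the low end of the excluded genes: Igfbp4 was at 0 in members by choice, and Ccl5 was at 63.1 CPM in Mito-low members against 372 CPM in the others.

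Each rule gene was then measured in cells chosen by the other 3, with the same exclusions, so that its own detection played no part. Ryr2 stood at 75.5 CPM in the 705 Mito-high cells chosen without it and at 20.4 CPM in the remaining cells that passed the exclusions, a ratio of 3.71-fold (log2 1.89, interval 1.74 to 2.04), and the Mito-low ratio was 3.87-fold. C2cd4b was 3.54-fold and 2.79-fold higher in cells chosen without it, in Mito-high and Mito-low. Hdac9 was 2.98-fold and 2.75-fold higher. Plagl1 was 2.45-fold and 2.15-fold higher. All 4 genes were higher in cells that carried the others, in both libraries, by less than the ratios that the rule itself fixes. The 4 were chosen together with earlier results of these data known. Leaving 1 out does not undo that choice, so these ratios describe the group and are no independent support for it. Tbc1d4 was at no stage part of the rule, but it was listed beforehand as a marker of this group, so its level is a description too. It was at 386 CPM in Mito-high members and 171 CPM in the other Mito-high cells (log2 1.18, interval 1.12 to 1.23). In Mito-low it was at 460 against 161 CPM (log2 1.52, interval 1.46 to 1.58). A Tbc1d4 UMI was present in 81.4% of Mito-high and 72.6% of Mito-low members and in 43.6% and 34.0% of the others. With every cell thinned to 2000 UMIs these shares became 47.1% and 50.2% of members against 21.7% and 20.3% of others.

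Members carried Treg transcripts. Ctla4, an inhibitory receptor that Treg cells use to take costimulatory ligands off other cells, was at 1218 and 1765 CPM in Mito-high and Mito-low members against 1023 and 1522 CPM in the others, and had a UMI in 98% and 97% of members. Ikzf2, the transcription factor Helios, was at 1911 CPM in Mito-high members against 1257 CPM in the others (log2 0.60, interval 0.58 to 0.63), and at 2084 against 1877 CPM in Mito-low (0.15). The Helios difference between members and others was the larger one in Mito-high, where the others were lower than in Mito-low. Members were not higher in Mito-high than in Mito-low. Foxp3 was at 24.1 against 26.0 CPM in Mito-high (interval of the log2 ratio -0.32 to 0.09) and at 34.7 against 41.8 CPM in Mito-low (-0.47 to -0.07). Il2ra, the interleukin 2 receptor alpha chain, was at 219 against 208 CPM and at 192 against 153 CPM. Foxp3 and Il2ra therefore did not set members apart by 1.5-fold in either library. Of 27 measured Treg identity genes, 5 were higher and 3 lower by 1.5-fold or more in each library, with medians of 0.19 and 0.20. Over all measured genes 3.75% were higher and 1.67% lower in Mito-high, and 2.94% and 2.1% in Mito-low. In both libraries 2 of the 27 were higher and 1 lower, beside 1.38% and 0.705% of all measured genes.

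Markers of other cell types were compared by their summed levels. The 12 heart and skeletal muscle markers, listed because Ryr2 is known from heart, summed to 1.61 CPM in members of Mito-high and 1.70 CPM in those of Mito-low against 1.79 and 1.68 CPM in the others, and 7 of them were at 0 in members. The 9 markers of NK and innate lymphoid cells summed to 3.22 and 2.0 CPM in members and the 13 myeloid markers to 5.37 and 4.93 CPM, and 5 of the first and 6 of the second list were at 0 in members. Markers of conventional CD4 T cells, many of which Treg cells share, summed to 702 and 756 CPM in members against 936 and 788 CPM in the others. Thymocyte markers summed to 195 and 177 CPM against 222 and 187 CPM, and stromal, endothelial and epithelial markers to 147 and 164 CPM against 187 and 176 CPM. The 8 gamma delta T cell markers summed to 2.68 and 5.24 CPM in members, and the 7 CD8 T cell markers to 171 and 62.3 CPM against 52.7 and 74.9 CPM in the others, of which Nkg7 alone gave 160, 57.2, 39.6 and 66.1 CPM. The 12 B cell markers summed to 107 and 84.8 CPM in members against 97.8 and 107 CPM in the others. Cells with at least 3 of 6 B cell genes numbered 22 in the Mito-high library, 1 of them a member, and 0 in Mito-low. Of those 22 cells, with a median of 3134.5 UMIs, 0 had a Ryr2 or C2cd4b UMI, while 7 had Hdac9 and 2 Plagl1. A count of 0 allows a share of up to 13.6% of such cells with a UMI at this depth, and sets no limit on cells that express the gene. Of 5 measured follicular Treg markers, 1, Cxcr5, was at least 1.5-fold higher in members of both libraries, where 1.38% of all measured genes were. In Mito-high 3 of the 5 passed 1.5-fold upwards, beside 3.75% of all measured genes, and in Mito-low 2, beside 2.94%, with medians of 0.84 and 0.46. Cxcr5, the receptor that leads cells into B cell follicles, was at 19.1 against 10.7 CPM and at 26.7 against 13.4 CPM. Bcl6, which drives the follicular state, passed in Mito-low alone, at 80.6 against 38.3 CPM, and was at 59.4 against 46.2 CPM in Mito-high. The part of follicular or other cells in the member profile was not tested.

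**Figure D1:**
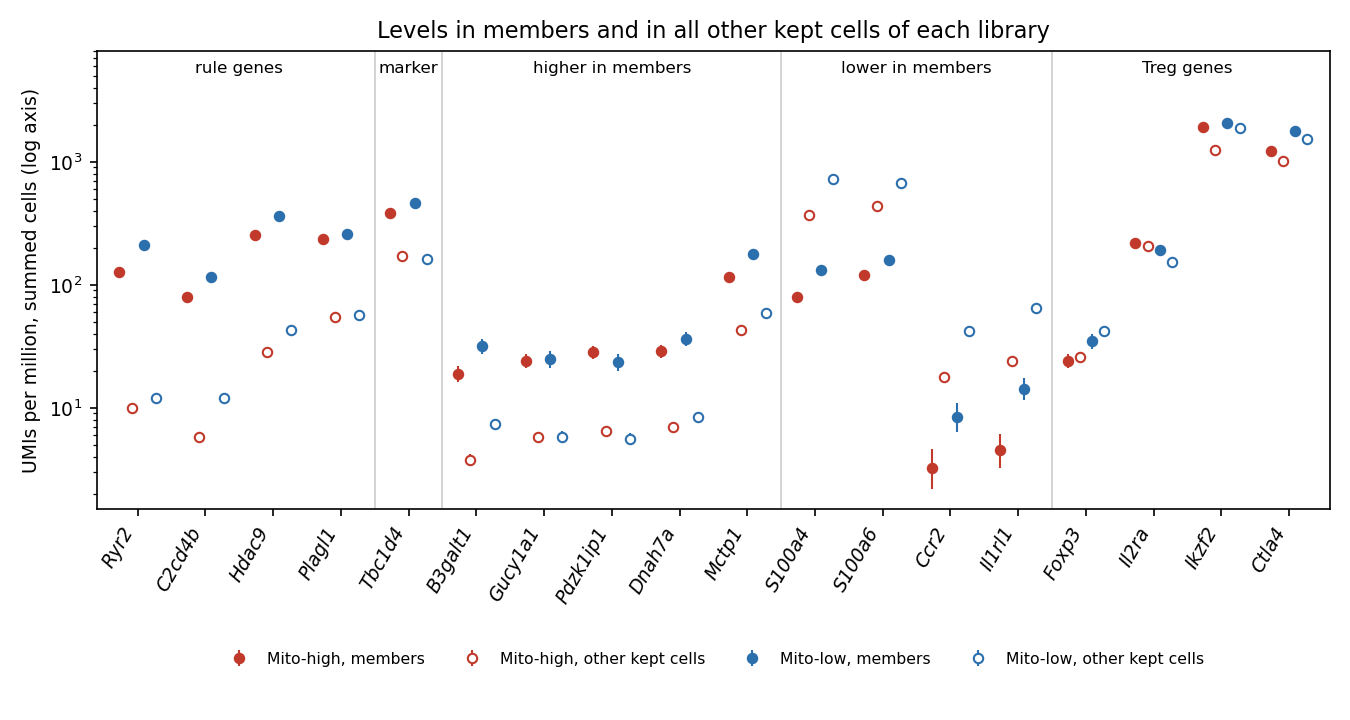
CPM (vertical, log axis) of rule genes, Tbc1d4, genes higher or lower in members and Treg genes in the summed UMIs of members (filled) and all other kept cells (open) of the Mito-high (red) and Mito-low (blue) library; bars are exact 95% Poisson intervals. Tbc1d4 and the 5 genes to its right lie higher in members of both libraries, S100a4, S100a6, Ccr2 and Il1rl1 lower, and the Foxp3 points of members and others lie side by side.

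Since the rule counts detected genes, it takes more of the deeply read cells. Members had a median of 7951 UMIs and 2481 genes in Mito-high against 5995 UMIs and 1975 genes in the others, and 5421 UMIs and 2031 genes in Mito-low against 4604 and 1792. From 3000 UMIs on, the member share climbed from 2.33% of Mito-high cells of 3000 to 4000 UMIs to 19.4% of those of 15000 or more, and from 5.61% to 23.9% in Mito-low. Over the whole libraries the share was 7.87% (interval 7.39 to 8.36%) in Mito-high and 8.75% (8.24 to 9.28%) in Mito-low. In 8 of 9 depth classes it was higher in Mito-low, the exception being cells below 2000 UMIs, where 5 Mito-high and 12 Mito-low members were found. With every cell thinned to 2000 UMIs, for which 139 and 491 cells were too shallow, the rule took 301 of 12078 cells (2.49%, interval 2.22 to 2.79%) and 413 of 11188 cells (3.69%, interval 3.35 to 4.06%). The higher share in Mito-low was thus present at equal depth, at a level set by the depth. After thinning, members and others of Mito-low had medians of 1036 and 1028 genes, and those of Mito-high 982 and 948.

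**Figure D2:**
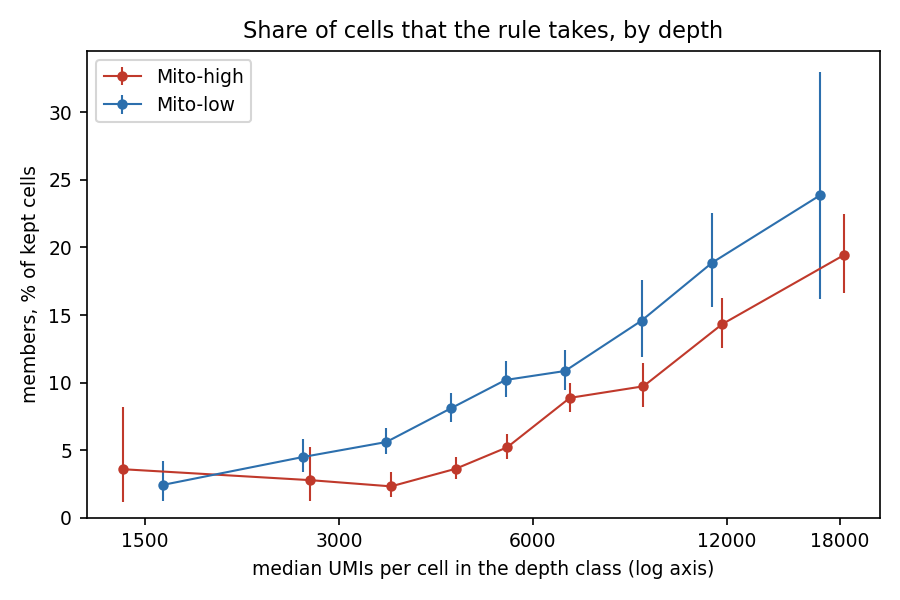
Members as percent of kept cells (vertical) in 9 classes of UMIs per cell, placed at the median UMIs of the class (horizontal, log axis), for Mito-high (red) and Mito-low (blue); bars are exact 95% Clopper-Pearson intervals. From 3000 UMIs on the share rises with each class in both libraries, to 19.4% and 23.9%, and the Mito-low points lie higher in 8 of 9 classes.

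Of 7378 measured genes, 102 (1.38%) were at least 1.5-fold higher in members in both libraries, and 52 (0.705%) were at least 1.5-fold lower in both. In Mito-high alone the counts were 277 (3.75%) higher and 123 (1.67%) lower, and in Mito-low 217 (2.94%) and 155 (2.1%). Of the 15 genes with the highest ratios in both libraries, 3 are abundant enough to pass a filter of mean CPM 50, namely Tbc1d4, Mctp1 and Prickle1. B3galt1, a glycosyltransferase, was at 19 CPM in Mito-high members against 3.78 CPM in the others and at 31.8 against 7.40 CPM in Mito-low, ratios of 5.03-fold and 4.3-fold. Gucy1a1, the alpha subunit of the nitric oxide receptor guanylate cyclase, was at 24.2 against 5.78 CPM and at 24.8 against 5.75 CPM (4.19-fold and 4.33-fold). Pdzk1ip1, a small membrane protein, was at 28.3 against 6.53 CPM and at 23.4 against 5.63 CPM. These 3 genes were present in few cells: a UMI of Gucy1a1 was found in 14.9% of Mito-high and 11.0% of Mito-low members and in 2.91% and 2.22% of the others, and 46.3% of the B3galt1 UMIs of Mito-high members came from 10 cells.

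Mctp1, another of the 15, a calcium-binding membrane protein with C2 domains, was at 116 against 42.7 CPM in Mito-high (log2 1.44, interval 1.34 to 1.54) and at 180 against 59.4 CPM in Mito-low (1.60, interval 1.5 to 1.70). Rgs9, a regulator that ends G protein signals, was at 41.7 against 14.1 CPM and at 46.6 against 19.1 CPM. Arhgap24, a GTPase-activating protein, was at 32.2 against 11.5 CPM and at 26.8 against 7.70 CPM. Ptpn5, a tyrosine phosphatase, had log2 ratios of 1.96 and 1.51, and Prickle1, a planar polarity protein, of 1.27 and 1.39. Nr3c2, the mineralocorticoid receptor, was at 11.8 against 3.85 CPM in Mito-high and at 39.2 against 16.1 CPM in Mito-low. Its members differed between fractions too, with a log2 ratio of Mito-high to Mito-low members of -1.72. Eno3, the muscle form of the glycolytic enzyme enolase, went the other way, at 55.6 against 23.1 CPM in Mito-high, and 7.55 against 3.13 CPM for Mito-low. Dnah7a, a dynein heavy chain (2.05 and 2.11), Bcat1, a branched-chain aminotransferase (1.27 and 1.39), Naip5, a sensor of bacterial flagellin (1.24 and 1.46), Fam43a (1.16 and 1.17) and Tbc1d4 completed the 15.

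The 15 genes with the lowest ratios in both libraries included calcium-binding proteins and receptors of tissue-homing effector cells. S100a4 was at 79.0 CPM in Mito-high members against 372 CPM in the others (log2 -2.23, interval -2.34 to -2.13) and at 132 against 728 CPM in Mito-low (-2.46, interval -2.56 to -2.37). S100a6, encoded close to it on chromosome 3, was at 120 against 441 CPM and at 160 against 676 CPM. Ccr2, a chemokine receptor for exit towards inflamed tissue, was at 3.22 against 17.9 CPM and at 8.48 against 42.3 CPM, and Il1rl1, the interleukin 33 receptor ST2 of tissue Treg cells, at 4.51 against 23.9 CPM and at 14.3 against 65.3 CPM. Each of these 4 genes was lower in members of both libraries by log2 1.87 or more. Prdm1, the effector transcription factor Blimp-1, had log2 ratios of -1.90 in Mito-high, where members held 20 UMIs, and -1.38 in Mito-low. Lgals3, a galectin, had -2.09 and -2.78. Phosphodiesterases, which degrade cyclic nucleotides, were among the 15 as Pde3b with -2.35 and -2.78 and as Pde2a with -1.23 and -1.37. Ly6c1 (-2.90 and -2.04), Ly6a (-1.62 and -1.79), Neb (-1.84 and -1.86), Gna15, Cd7, Ctla2a and Frmd5 completed the list. Since cells with Igfbp4 or with 2 of Ccl5, Il10 and Klrg1 cannot be members, part of the contrast with all others is set by the exclusions. Against others that passed the same exclusions, 111 genes were higher and 55 lower in both libraries, 99 and 44 of them shared with the counts above.

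**Figure D3:**
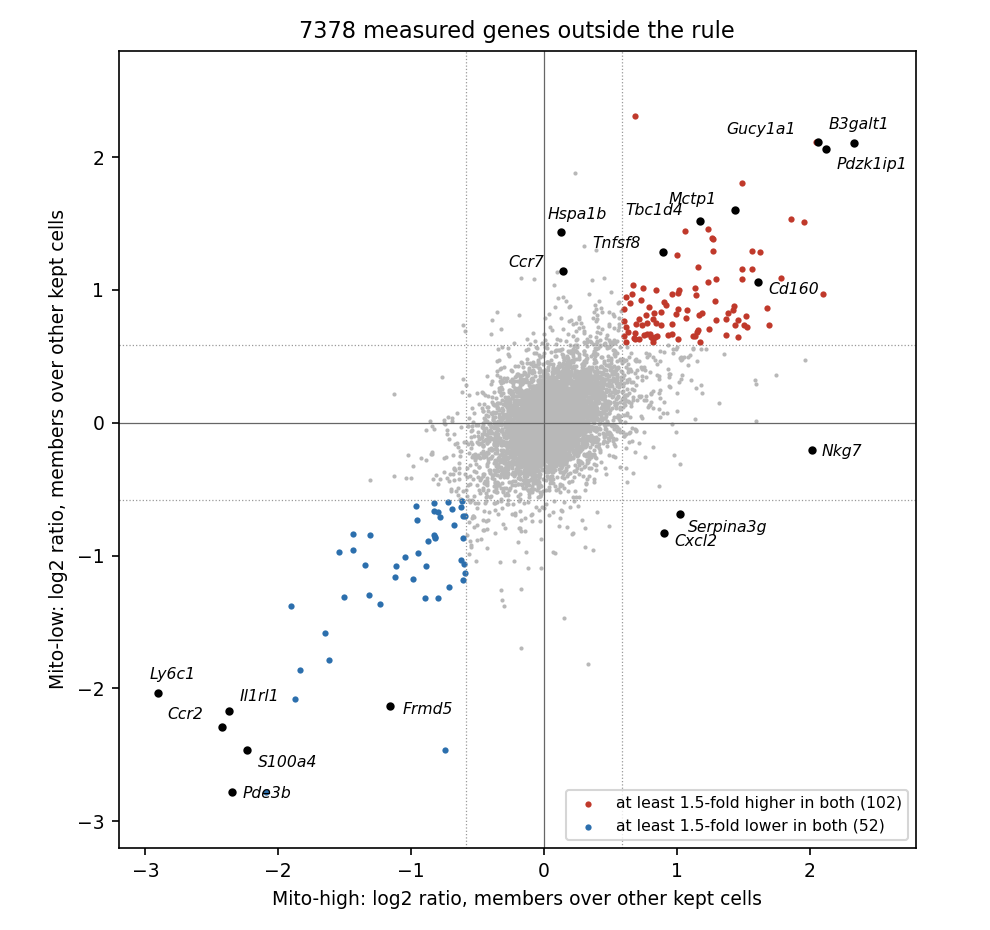
log2 ratio of members over other kept cells in Mito-high (horizontal) and Mito-low (vertical) for 7378 measured genes outside the rule, with the 102 genes at least 1.5-fold higher in both in red, the 52 at least 1.5-fold lower in both in blue, dotted lines at 1.5-fold and labelled genes in black. B3galt1, Gucy1a1 and Pdzk1ip1 lie at the top right and Pde3b, S100a4 and Ccr2 at the bottom left, while Nkg7 is higher in members of Mito-high alone.

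The gene lists describe which functions these genes belong to. The lists of effector Treg and suppression genes held 26 measured members, of which 1, Itgb8, was higher in members of both libraries and 7 were lower in both, among them Itgae, Fgl2, Il1rl1, Lgals3, S100a4 and S100a6. Its median was 0.29 in the Mito-high library and -0.25 in the Mito-low library, of opposite sign, beside 0.05 and 0.03 over all measured genes. In Mito-high, 9 of the 26 were 1.5-fold or more above the others and 7 below, in Mito-low 1 and 10. Over all measured genes the shares above and below were 3.75% and 1.67% in Mito-high and 2.94% and 2.1% in Mito-low. In both libraries they were 1.38% and 0.705%. Cells with 2 or more of Ccl5, Il10 and Klrg1 cannot be members, which may set part of these counts. Tnfrsf9, the costimulatory receptor 4-1BB, was at 455 against 227 CPM in Mito-high and at 546 against 468 CPM in Mito-low. Pdcd1, which encodes the inhibitory receptor PD-1, was at 38.4 against 19.5 CPM in Mito-high and at 53.7 against 63.7 CPM in Mito-low. Itgb8, the integrin chain with which Treg cells activate TGF-beta, was at 57.0 against 22.1 CPM and at 71.5 against 41.8 CPM.

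Among 23 measured genes of resting cells and lymph node homing, 0 were higher in both libraries and 2, S1pr1 and Ly6c1, were lower in both. Over all measured genes these shares were 1.38% and 0.705%. In Mito-high 8 of the 23 were lower in members, Satb1 at 290 against 573 CPM and Lef1 at 189 against 389 CPM among them, beside 1.67% of all measured genes. Beside 2.1% lower and 2.94% higher over all measured genes, 2 of the list were lower and 2 higher in Mito-low. One of the latter was Ccr7, the receptor for entry into lymph nodes, at 256 against 116 CPM (log2 1.14, interval 1.06 to 1.22), while in Mito-high it was at 490 against 444 CPM (0.14). S1pr1, which guides cells out of lymph nodes, was at 70.5 against 192 CPM and at 75.9 against 136 CPM. Relative to the others of the same library, members thus had fewer S1pr1 transcripts in both and over 1.5-fold more Ccr7 transcripts in Mito-low. The Ccr7 level of Mito-low members was nonetheless below that of Mito-high members and of the other Mito-high cells, and the other Mito-low cells were lower still.

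The receptor lists are set beside all measured genes, of which 1.38% were higher and 0.705% lower in both libraries. Of 23 measured chemokine receptors and integrins, 2 were higher in both libraries, Cxcr5 and Itgb8, and 7 were lower in both, among them Ccr2, Ccr4, S1pr1 and Itgae. Of 19 measured inhibitory and costimulatory receptors and ligands, 3 were higher in both and 0 lower in both. Tnfsf8, the CD30 ligand, was at 506 against 272 CPM in Mito-high and at 482 against 198 CPM in Mito-low. Cd160, a receptor for HVEM, was at 25.2 against 8.28 CPM and at 16.5 against 7.96 CPM, and the remaining gene was Cd200, named after its values were seen, at 86.8 against 46.4 CPM and at 84.2 against 44.9 CPM. Of 23 cytokine receptors, 0 were higher and 1, Il1rl1, was lower in both libraries.

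Lists of genes related to the rule genes had counts near those over all measured genes, of which 3.75% were higher and 1.67% lower in Mito-high and 1.38% higher in both libraries. Of 18 measured genes of calcium release and entry, which holds the other calcium channels and their regulators, 0 were at least 1.5-fold higher or lower in either library, with medians of 0.08 and -0.07. In calcium signalling, 1 of 19, Prkca, was higher in both: this calcium-dependent protein kinase was at 1093 against 704 CPM in Mito-high and at 1440 against 898 CPM in Mito-low. Of 15 measured histone deacetylases and partners, 1 was higher in both, Hdac7, a class IIa deacetylase like Hdac9, at 107 against 62.6 CPM and at 108 against 67.8 CPM. Of 8 measured imprinted genes beside Plagl1, 0 passed 1.5-fold in either library. Of 23 genes of AKT signalling and glucose uptake, Tbc1d4 was the 1 higher in both. The other members of the C2CD4 family were nearly silent and summed to 0.107 and 0.154 CPM in members.

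Of 19 measured genes induced early by the T cell receptor, 6 passed 1.5-fold upwards among Mito-high members, beside 3.75% of all measured genes, and 2 among Mito-low ones, beside 2.94%, with 0 lower, and Nr4a2 was the 1 higher in both. This orphan nuclear receptor was at 288 against 143 CPM in Mito-high (log2 1.01, interval 0.95 to 1.07) and at 374 against 207 CPM in Mito-low (0.85, interval 0.79 to 0.92). Bhlhe40 was at 478 against 249 CPM in Mito-high and at 452 against 357 CPM in Mito-low. Of the 23 genes of the receptor complex and its proximal signalling, 0 passed 1.5-fold in either library. Genes of mitochondria also differed little between members and others: 0 of 13 mt-encoded genes, 0 of 37 complex I genes and 0 of 38 nuclear genes of complexes II to V passed 1.5-fold in either library, and mt-encoded UMIs made up 3.61% and 3.39% of member UMIs against 3.42% and 3.21% in the others. Of 17 measured copper-handling genes, 0 were at least 1.5-fold higher in either library and 1 was lower in Mito-low, the metal-binding metallothionein Mt1, at 29.9 against 55.2 CPM.

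Levels also graded with the number of rule genes, compared over cells that passed the exclusions. In Mito-high, Tbc1d4 was at 144 CPM in cells with 0 rule genes, 267 with 1, 356 with 2 and 489 with 3 or 4, and in Mito-low at 137, 259, 423 and 593 CPM. S100a4 ran the opposite way, from 560 to 213, 99.4 and 9.48 CPM in Mito-high and from 872 to 397, 149 and 71.9 CPM in Mito-low. Both genes differed at each step, and cells with 1 rule gene lay between non-members without rule genes and members. Mctp1 went from 34.4 to 133 CPM and from 43.8 to 238 CPM, and Nr4a2 from 124 to 353 CPM and from 180 to 429 CPM. Ikzf2 was at 1232 CPM with 0 and 1975 CPM with 3 or 4 rule genes in Mito-high, and at 1733 and 2070 CPM in Mito-low. Foxp3 ran from 27.1 to 24.2, 22.9 and 28 CPM in Mito-high. In Mito-low it ran from 42.3 to 39.3, 34.3 and 35.9 CPM. The counting intervals at 0 (40.0 to 44.8 CPM) and at 2 rule genes (29.4 to 39.8 CPM) lay just apart. That at 3 or 4 (26.8 to 47.3 CPM) overlapped both, and spread between cells is not covered. Median depth rose alongside, from 5447 to 7954.5 UMIs in Mito-high and from 4338 to 5951 UMIs in Mito-low. With the others weighted to the depth of members, 97 genes were higher in members of both libraries and 57 lower, 91 and 44 of them shared with the main counts.

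**Figure D4:**
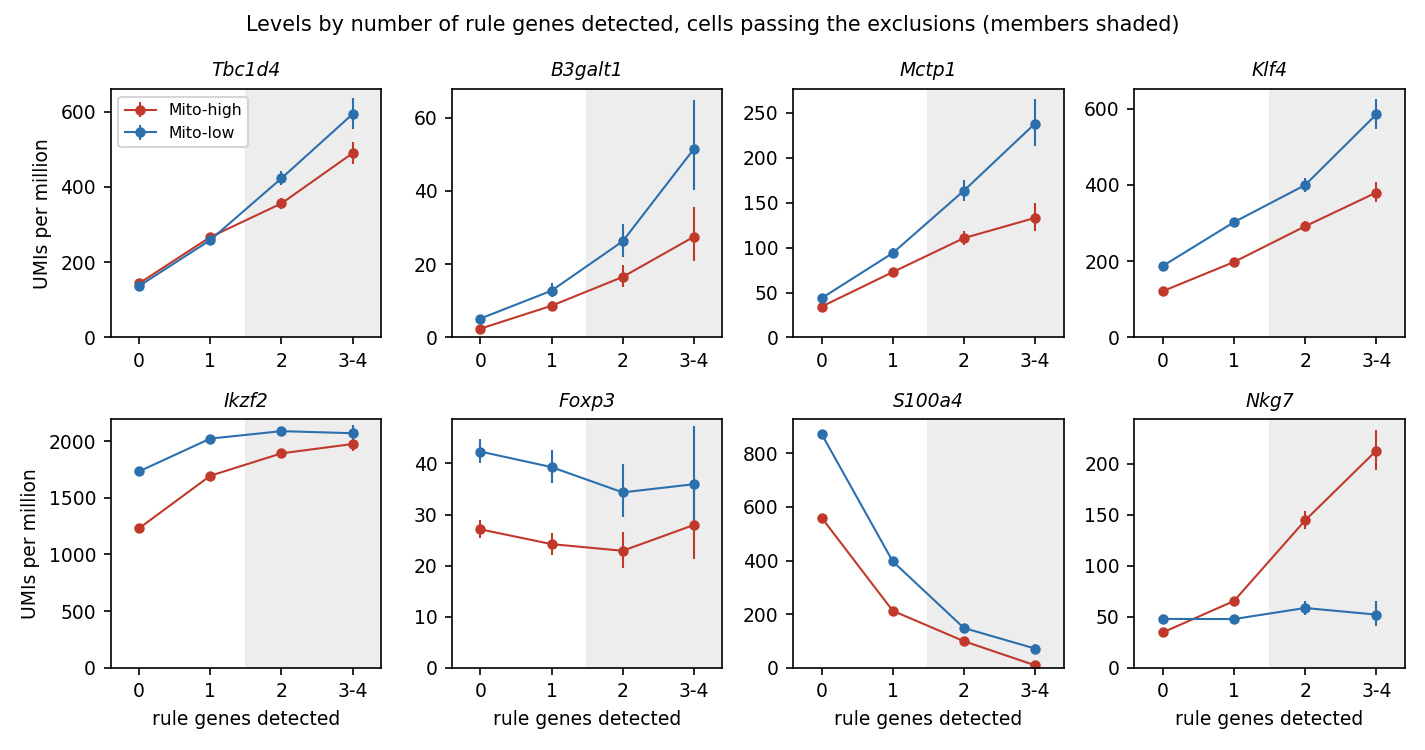
CPM with exact 95% Poisson intervals (vertical) of 8 genes by number of rule genes detected (horizontal) in cells that passed the exclusions, for Mito-high (red) and Mito-low (blue), members shaded. Tbc1d4, B3galt1, Mctp1 and Klf4 climb at each step in both libraries, S100a4 drops at each step, Foxp3 stays between 22.9 and 42.3 CPM, and Nkg7 climbs in Mito-high alone.

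Joint clustering of all kept cells gave 11 clusters, and members were spread over most of them. The clusters used all variable genes, rule genes included, so what follows is a description. Cluster 3, led by Pdzk1ip1, Gucy1a1, Ryr2, C2cd4b and B3galt1, took in 63.7% of the Mito-high members and 47.8% of the Mito-low ones, and 25.7% and 35.4% of its own cells were members. In Mito-low 20.5% of members lay in cluster 0 (led by Rflnb and Itgb1), 11.3% in cluster 2 (led by Lilrb4a and Ccl5) and 10.5% in cluster 6 (led by Lars2). In Mito-high 14.8% lay in cluster 1 (led by Sorcs2 and Plaur) and 5.93% in cluster 8 (led by cell cycle genes). Cluster 5, led by Anxa1 and Ccr10, held 0.624% of Mito-high and 0 of the Mito-low members. Within cluster 3, where cells with and without 2 detected rule genes share most of their profile, 14 measured genes were at least 1.5-fold higher in members of both libraries and 7 were lower, against 102 and 52 over all cells. Tbc1d4 there was at 468 against 345 CPM in Mito-high and at 605 against 469 CPM in Mito-low, B3galt1 at 27.2 against 13.7 CPM and at 46.0 against 24.0 CPM, and S100a4 at 18.1 against 30.4 CPM and at 28.3 against 45.9 CPM. In these 3 genes, cells of cluster 3 outside the rule lay between its members and the other kept cells as a whole. Beside all members together, those cells were lower in B3galt1 and S100a4 in both libraries and about level in Tbc1d4 in Mito-low. Other named genes differed less or otherwise within cluster 3. The log2 ratios were 0.07 and 0.13 for Bcat1, 0.23 and 0.24 for Arhgap24 and 0.21 and -0.03 for Ikzf2. Ccr2, at under 2 CPM there, was not lower in members (0.42 and 1.52).

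Members of the 2 fractions were then set beside each other. Of 7378 measured genes, 344 (4.66%) were higher by 1.5-fold or more in Mito-high members and 774 (10.5%) lower. In the other kept cells the same contrast gave 269 (3.65%) and 786 (10.7%). The median ratio over all measured genes was -0.14 in members and -0.15 in others, and the split depends on the scaling: with TMM factors 689 genes were higher and 349 lower in Mito-high members, with the median set to 0 the counts were 579 and 414, and with CPM formed without mt-, ribosomal and receptor genes 521 and 466. TMM moved each ratio between members by 0.18. Of 11 transcripts listed as nuclear or as signs of RNA quality, 7 were lower by 1.5-fold or more in Mito-high members and 0 higher, with a median of -0.77 in members and -0.61 in the others, and their part in the other ratios was not tested. The Mito-high to Mito-low log2 ratio of Ryr2 in members was -0.73 (interval -0.84 to -0.61), that of C2cd4b -0.54, of Hdac9 -0.51 and of Plagl1 -0.15, all in cells that the rule chose by these genes. Tbc1d4 had -0.25 (interval -0.32 to -0.18) in members and 0.09 in the others.

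Transcripts of dividing cells led the genes higher in Mito-high members. Stmn1, a microtubule regulator of proliferating cells, was at 222 CPM in Mito-high members and 13.0 CPM in Mito-low members (log2 4.08, interval 3.78 to 4.43) and at 161 and 17.1 CPM in the others (3.23). Pclaf, a PCNA-binding protein, was at 85.6 CPM in Mito-high members, and its 4 UMIs in Mito-low members gave 0.617 CPM (log2 6.80, interval 5.75 to 9.0). Ube2c (3.73), Hist1h1b (3.64), Prim1 (2.92), Uhrf1 (2.91), Nusap1 (2.60), Hist1h2ae (2.47), Ccnb2 (2.45), Cks1b (2.44) and Rrm2 (2.38) are cell cycle genes among the 12 with the highest ratios. Among 20 measured S phase genes 15 passed 1.5-fold towards Mito-high members (median 1.33), and 8 of 9 G2 and M phase genes did (median 2.21), while in the others 12 and 7 did (medians 1.06 and 1.11). Over all measured genes 4.66% were higher in Mito-high members and 3.65% in the Mito-high others. Cells with at least 2 of 8 cycling genes made up 15.7% of Mito-high members (151 cells) and 2.94% of Mito-low members (30 cells), against 9.66% and 1.95% of the others. Depth moved with them: Mito-high cells of cluster 8 had a median of 16380 UMIs. Members were also deeper than the others, and the cycling shares, which count detected genes, were not compared at equal depth. Among cells of 4000 to 8000 UMIs the S phase median in members was -0.33 and the G2 and M phase median 0.08, and without cells with 2 or more cycling genes they were 0.22 and -0.29. The second setting removes cycling cells by construction and the first leaves out the deepest cells, so these medians describe the remaining cells alone.

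The 12 highest ratios also held Sox4 and Eno3. Sox4, a transcription factor, was at 16.1 CPM in Mito-high members and 1.70 CPM in Mito-low members (log2 3.13), and at 21.8 and 2.04 CPM in the others (3.41). Eno3 had 2.85 in members (interval 2.46 to 3.33) and 2.87 in others (interval 2.65 to 3.12). For both genes the ratio in members was close to that in the other cells.

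Of the 12 genes named as lowest in Mito-high members, Prdm1 had the lowest ratio. It was at 2.15 CPM in Mito-high members and 12.3 CPM in Mito-low members (log2 -2.47, interval -3.31 to -1.80), and at 8.43 and 32.4 CPM in the others (-1.94). Abcb1a, an efflux pump of small molecules, was at 21.0 and 115 CPM in members and at 16.9 and 119 CPM in the others. Fgl2, a secreted suppressive molecule of effector Treg cells, was at 2.15 and 11.4 CPM in members. The same direction of these 3 genes was found in members and in the other cells. Ifit1, induced by interferon, was at 15.6 and 69.4 CPM in members (-2.15) and at 19.5 and 42.5 CPM in the others (-1.12), and the heat shock gene Hspa1b at 7.95 and 31.5 CPM in members (-1.97) and at 7.37 and 11.6 CPM in the others (-0.66). For Hspa1b, 56.4% of the UMIs of Mito-low members came from 11 cells, and cluster 9, led by heat shock and interferon genes, held 6.16% of Mito-low and 1.56% of Mito-high members. The share of this cluster in the 2 ratios was not tested. Myo1f (-2.37), Frmd5 (-2.30), Naip5 (-2.21), Neb (-2.16), Ptpn13 (-2.01), Rflnb (-2.01) and Prag1 (-1.88) completed the 12.

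Some contrasts between the fractions were smaller in members than in the other cells. For the 26 effector Treg and suppression genes the median was -0.65 in members, where 14 were lower in Mito-high by 1.5-fold or more and 3 higher, and -1.16 in the others, where 21 were lower and 2 higher. Among others that passed the same exclusions the median was -0.98. Over all measured genes 10.5% were lower and 4.66% higher in Mito-high members, and 10.7% and 3.65% in the Mito-high others. The 23 resting and lymph node homing genes had a median of 0.06 in members and 0.61 in the others, or 0.44 in others that passed the exclusions. The difference between the 2 contrasts was not tested, as there is 1 library of each fraction. Ccr7 illustrates it, with log2 0.93 in members and 1.94 in the others, as does Ikzf2 with -0.13 and -0.58. The 19 inhibitory and costimulatory receptors had -0.27 in members and -0.57 in the others, and the 27 Treg identity genes -0.27 and -0.45.

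Most nuclear genes of mitochondrial function differed by less than 1.5-fold between members of the fractions. For the 37 complex I genes the median was 0.28 (3 genes higher by 1.5-fold or more, 0 lower), for the 38 genes of complexes II to V 0.29 (4 and 0), and for the 48 genes of the mitochondrial ribosome 0.38 (8 and 0), beside 4.66% higher and 10.5% lower over all measured genes. In the others these medians were 0.11, 0.14 and 0.25, beside -0.15 over all genes. Sdhd, a subunit of complex II, was at 56.2 CPM in Mito-high members, at 20.8 CPM in Mito-low members and at 57.9 and 22.9 CPM in the others. Among cells of 4000 to 8000 UMIs the 3 medians in members were 0.06, 0.09 and 0.08, each closer to 0. The 13 mt-encoded genes had a median of -0.07 in members, a sign that TMM scaling turned to 0.11. Of 17 copper-handling genes, 2 were higher by 1.5-fold or more in Mito-high members, Commd1 (0.64) and the ferredoxin Fdx1 (0.63), and 0 were lower, with a median of 0.08, or -0.03 among cells of 4000 to 8000 UMIs.

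**Figure D5:**
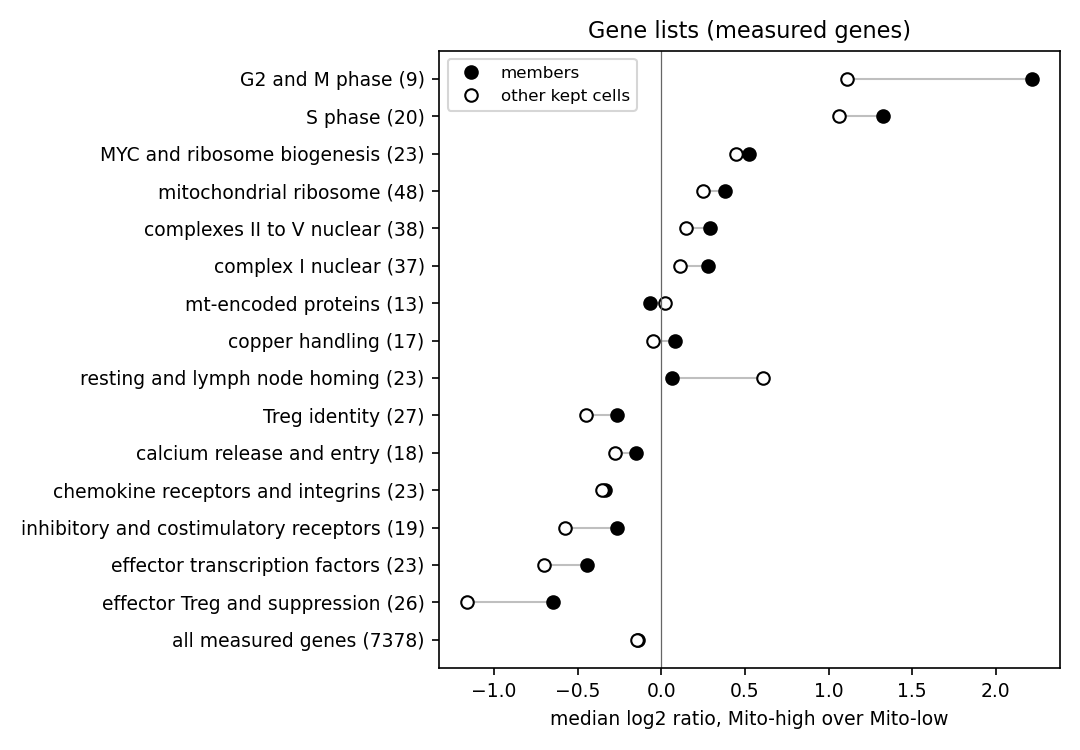
Median log2 ratio, Mito-high to Mito-low (horizontal), of the measured genes of 15 lists and of all measured genes, in members (filled) and in the other kept cells (open), with the number of measured genes in brackets. The cell cycle medians lie at 1.33 and 2.21 in members, the effector median at -0.65 in members and -1.16 in the others, and the resting median at 0.06 and 0.61.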

How the data were processed

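The authors deposited raw UMI counts per gene and barcode for both libraries, per the file headers, made with Cell Ranger 7.1.0 on mm10, per the submitters' processing notes, which also name Seurat 4.3.0.1. The Chromium Single Cell 5′ kit version 2 was used, per the labels. How introns were counted was not given in the sources used here. Barcodes with fewer than 500 genes or over 20% mt- UMIs were dropped (120 and 15 Mito-high barcodes, 209 and 13 of Mito-low), and 40 repeated gene symbols were summed. Scrublet in scanpy 1.11.5 marked 0 cells in either library, which was taken as a caller that had not worked, so no doublets were removed. Raw counts were summed over members and over all other kept cells of each library. Intervals are Poisson, conditional binomial or Clopper-Pearson. PCR copies are removed by the UMI, but intervals and floors cover counting error only. Clustering used 2000 variable genes, 30 components, 15 neighbours and Leiden resolution 0.6 (leidenalg 0.10.2), without integration. TMM factors came from edgeR 4.0.16, which was used for no test. The ratio and interval code was tested on simulated data. Alternatives covered the rule, cells, depth, scaling, pseudo-count, filters and weighting.

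The members, the 47 gene lists and the settings were chosen with earlier results of these data known. Named genes are the 15 highest and 15 lowest by the weaker of both libraries' ratios, the 12 highest and lowest Mito-high over Mito-low ratios with at least 10 UMIs in each, the rule and Treg genes, up to 4 of each list with the largest ratios and the leaders of the main cluster. Klf4, Cd200, Gsta4, Map2 and Penk were named after their values were seen, as were the leaders of the other clusters and the genes with opposite ratios in the closing section.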

Additional observations from a re-analysis of the deposited data

Results flagged for a closer look

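The ratios of 4 genes pointed apart: they were at least 1.5-fold higher in members than in the other cells of one library and at least 1.5-fold lower in those of the other, with both intervals away from 0. Serpina3g, a protease inhibitor, had a log2 ratio of 1.02 in Mito-high but -0.68 in Mito-low, with levels of 18.8 against 9.28 CPM and 35.0 against 56.5 CPM. The chemokine Cxcl2 had 0.90 and -0.83, with 66.5% of its UMIs in Mito-high members from 10 cells. Gpr83, a receptor that Treg cells carry, had -0.61 in Mito-high but 0.74 in Mito-low, and its level was 24.4 and 20.8 CPM in members but 37.3 and 12.5 CPM in the others. Plaur, the urokinase receptor, had -0.59 and 0.69, from 15.5 against 23.5 CPM and 7.40 against 4.66 CPM. For all 4 genes the members of both libraries lay closer to each other than the other cells did, with Mito-high to Mito-low log2 ratios in members and others of -0.90 and -2.60 for Serpina3g, 0.11 and -1.63 for Cxcl2, 0.22 and 1.57 for Gpr83, and 1.04 and 2.33 for Plaur. Within cluster 3 the log2 ratios of members over others, Mito-high then Mito-low, were 0.17 and -0.43 for Serpina3g and 0.95 and 0.12 for Cxcl2. They were -0.38 and 0.63 for Gpr83 and 0.06 and 0.30 for Plaur. None of the 4 genes passed 1.5-fold in opposite directions there. None of these differences was tested, since each fraction has 1 library.

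Nkg7 and Sdc4 differed between the fractions in opposite directions in members and in the others, again untested. Nkg7, a protein of cytotoxic granules, had a Mito-high to Mito-low log2 ratio of 1.48 in members and -0.74 in the others. It was at 160 CPM in Mito-high members and 57.2 CPM in Mito-low members, against 39.6 and 66.1 CPM in the others, and 313 of 961 Mito-high members had a UMI of it. In Mito-high its level climbed with the number of rule genes from 34.7 to 65.5, 144 and 213 CPM, and in Mito-low it was at 47.9, 47.8, 58.6 and 52.1 CPM. Within cluster 3, however, members were higher in both libraries, at 223 against 112 CPM and at 98.6 against 53.3 CPM, and most Nkg7 UMIs of the other Mito-low cells (2694 of 3571) lay in cluster 2. Of the 171 CPM that 7 CD8 T cell markers summed to in Mito-high members, Nkg7 gave 160. Sdc4, a syndecan of the cell surface, had 0.84 in members and -0.78 in the others, from 12.3 and 6.78 CPM in members and 11.2 and 19.2 CPM in the others.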

How the results depend on the processing

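The 15 genes named as highest in members were measured and at least 1.5-fold higher in both libraries under the alternatives, except that 14 were among cells of 4000 to 8000 UMIs and 3 with a mean CPM of at least 50, since the rest fell below the abundance filter. Of the 15 lowest, 3 were called with that filter and 13 to 15 under the others. The counts moved more. Requiring 3 rule genes gave 216 genes higher and 102 lower in both libraries, 549 higher in Mito-high members, and shares of 1.70% and 1.72%. The rule on thinned cells gave 186 higher and shares of 2.49% and 3.69%, and cells of 4000 to 8000 UMIs gave 181 higher, 169 higher in Mito-high members and shares of 6.24% and 9.54%. Without exclusions the shares were 9.02% and 9.67%. Without cells with 2 or more cycling genes, a setting chosen after seeing the data like that without shared barcodes, the Mito-high share was 7.38% and 197 genes were higher in Mito-high members. A mean CPM of at least 50 gave 36 and 19 genes in both libraries and 101 and 263 between fractions, and genes with 1 UMI in each sum gave 1511, 248, 1431 and 3038. Scaling by TMM gave 689 and 349 between fractions, the median set to 0 gave 579 and 414, CPM without mt-, ribosomal and receptor genes 521 and 466, and Mito-high weighted to the Mito-low depth 171 and 511. The causes were not tested beyond the construction of each setting.

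Reversals are listed for ratios and list medians that were at least 1.5-fold. Of 3040 list medians over all lists, contrasts and alternatives, 154 had the other sign, 5 of them with a median of at least 1.5-fold. The rest were smaller, such as MYC and ribosome biogenesis genes in members, from 0.53 to -0.08 among cells of 4000 to 8000 UMIs, and complex I genes in the others, from 0.11 to -0.04. Between fractions in members, Lgals3 was at -0.25 with 3 rule genes. Among cells of 4000 to 8000 UMIs, Nusap1 was at -1.54, Hist1h2ae at -0.69 and the S phase median at -0.33, with S phase at -0.21 and G2 and M phase at -0.32 in the others. In the same cells the ratio of members over others was 0.20 for Itgae in Mito-high and, in Mito-low, 0.88 for Pclaf and 0.036 for Birc5. Pclaf had 4 UMIs over all Mito-low members, so its ratio rests on 4 member UMIs at most. Without cycling cells, Nusap1 was at -0.53, Hist1h2ae at -0.26, Rrm2 at -0.46 and the G2 and M phase median at -0.29, and -0.46 in the others. No paired analysis was possible because each fraction has 1 library and 1 replicate. Depth limits the rule itself: a cell with few UMIs can carry the rule genes undetected. Non-members may therefore include cells of the same kind, which was not tested.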

Other observations

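A few further genes, all named after their values were seen, were higher in members than in the others of both libraries, Penk in Mito-low by less than 1.5-fold. Klf4, a transcription factor that restrains T cell division, was at 312 CPM in Mito-high members against 142 CPM in the others (log2 1.14, interval 1.08 to 1.20) and at 440 against 218 CPM in Mito-low (1.02, interval 0.96 to 1.07). It had a UMI in 71.2% and 67.2% of members and in 38.1% and 38.2% of the others, and with cells thinned to 2000 UMIs in 38.7% and 45.7% against 19.3% and 25.2%. Map2, a microtubule-associated protein best known from neurons, was at 13.7 against 3.21 CPM in Mito-high and at 16.7 against 8.57 CPM in Mito-low. Penk, which encodes the opioid precursor proenkephalin, was at 96.9 against 24.8 CPM in Mito-high (log2 1.97) and at 195 against 140 CPM in Mito-low (0.48). Gsta4, a glutathione transferase, had its larger ratio in Mito-low, at 24.1 against 4.87 CPM (2.31), and was at 65.1 against 40.4 CPM in Mito-high (0.69). Klf4 thus had similar ratios in both libraries, while Map2 (2.10 and 0.97), Penk and Gsta4 each had 1 library with the larger difference. Within cluster 3 the log2 ratios of Klf4 were smaller, 0.65 in Mito-high and 0.33 in Mito-low.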
